A study of Mus musculus with 9 samples.

Results

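Expression of 9 nuclear genes of iron-sulfur cluster assembly in mitochondria was followed across 9 libraries. They were Nfs1, Lyrm4, Iscu, Hscb, Glrx5, Isca1, Isca2, Nfu1 and Bola3, chosen by gene symbol from the 54532 genes of the table. Each symbol matched 1 row, all 9 are protein-coding, and all 9 passed the filter of a mean FPKM of at least 1 that left 17266 genes to test. FPKM is the number of fragments or reads of a gene scaled to the length of the gene and to a size set for the library. Here that size differed from the library's total of gene reads.

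The libraries came from material labelled as male germ cells, titled spermatocytes, of Mus musculus at PD 35, with 3 libraries in each of 3 groups. The control group carries the genotype WT, and whether it holds Stra8-Cre or floxed alleles is not given in the sources used here, nor is the strain. In the ClpP cKO and ClpX cKO groups the gene was deleted with Cre driven by Stra8, a gene switched on in differentiating spermatogonia, so somatic cells of the testis keep both genes. The ClpP subunits form a proteolytic chamber inside mitochondria, into which the ClpX ring unfolds and feeds proteins. The labels do not say whether the replicates came from separate animals, so a p-value here refers to the spread among libraries, which may be technical. The 2 knockouts share the same controls, and the values of both are therefore given side by side without a test of their likeness.

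Iron-sulfur clusters are small cofactors of iron and sulfide that carry electrons or hold substrates in many enzymes, from the respiratory chain to DNA polymerases. In mitochondria a cysteine desulfurase supplies the sulfur, a scaffold protein holds the cluster while it forms, a chaperone pair releases it, and carrier proteins pass it on to the enzymes that need it. Late carriers serve a subset of enzymes, among them aconitase, respiratory complex I and lipoyl synthase. Cluster enzymes of the cytosol and nucleus depend on the same mitochondrial start and on a second machinery in the cytosol.

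The libraries held 14334436 to 17021685 gene reads. Clpx was at 54.7 to 59.3 FPKM in the controls and at 11.3 to 15.6 in ClpX cKO, and Clpp was at 8.46 to 9.36 in the controls and at 3.69 to 6.15 in ClpP cKO. In the other knockout Clpx was lower too, at 36.0 to 40.3 FPKM in ClpP cKO, and Clpp was higher, at 12.5 to 14.1 in ClpX cKO. The material was a mixture: elongating spermatid and Sertoli cell markers were present in every group, and none of the listed markers was at 0 in all libraries. The 10 elongating spermatid markers summed to 7800 to 17295 FPKM in the controls, 4491 to 5377 in ClpP cKO and 1594 to 2455 in ClpX cKO, and all 10 fell in both knockouts. The 10 Sertoli cell markers summed to 533 to 557, 766 to 864 and 979 to 1383 FPKM, and all 10 rose in both. All 10 round spermatid markers fell in both, and in ClpP cKO and ClpX cKO 5 and 7 of 9 spermatogonial, 3 and 7 of 7 tested immune, 2 and 6 of 8 peritubular and 0 and 2 of 8 Leydig cell markers rose. In ClpX cKO, 1 spermatogonial marker fell. Of the 4 tested erythroid markers 0 passed in ClpP cKO and 1 fell in ClpX cKO. Of the 2 tested endothelial markers 0 passed in ClpP cKO and 1 rose in ClpX cKO. The 6 erythroid markers summed to 28.1 to 48.9 FPKM in the controls. Their sums were 20.4 to 49.5 FPKM in ClpP cKO and 25.3 to 62.5 in ClpX cKO. Markers of spermatocytes, the titled cells, went both ways. Of the 10 pachytene and diplotene markers, 6 fell and 1 rose in ClpP cKO and 8 fell and 1 rose in ClpX cKO. Of the 9 early prophase markers, 5 rose and 1 fell in each knockout. Reads of mitochondrial genes made up 0.833% to 0.956% in the controls, 1.48% to 1.63% in ClpP cKO and 2.23% to 2.94% in ClpX cKO. On the first principal component, with 66.5% of the variance, Control 3 (-39.2) and ClpX cKO 1 (19.1) stood apart from the other controls (-55.8 and -52.4) and the other ClpX cKO libraries (54.7 and 55.5). In such bulk material fewer cells of a type and less RNA per cell cannot be told apart, and the part of these markers in the changes below was not tested.

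The stretches just upstream of Isca1, Isca2 and Glrx5 are shown because these were the members called in ClpX cKO by the tests below, the first pair lower and Glrx5 higher. They come from RefSeq windows of build GRCm38.p6, are read 5′ to 3′ on the strand of the gene, and end before its first annotated base. The Isca2 stretch stops at the start of the neighbouring gene Npc2. The Glrx5 stretch ends at 105032617, 1 base from the RefSeq start, while the gene as given below starts at 105032688. Capitals mark 3 motifs on either strand: the CCAAT box (CCAAT), the GC box (GGGCGG) and a binding motif of ETS factors (CCGGAAG).
Isca1, chr13:59769811-59770039, minus strand: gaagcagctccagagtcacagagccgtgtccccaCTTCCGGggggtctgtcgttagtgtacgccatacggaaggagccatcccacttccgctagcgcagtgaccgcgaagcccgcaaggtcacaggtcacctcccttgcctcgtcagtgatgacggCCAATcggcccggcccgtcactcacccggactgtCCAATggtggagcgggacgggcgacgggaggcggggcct
Isca2, chr12:84773153-84773250, plus strand: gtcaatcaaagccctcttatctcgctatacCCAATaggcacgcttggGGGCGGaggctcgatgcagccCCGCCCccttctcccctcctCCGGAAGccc
Glrx5, chr12:105032368-105032617, plus strand: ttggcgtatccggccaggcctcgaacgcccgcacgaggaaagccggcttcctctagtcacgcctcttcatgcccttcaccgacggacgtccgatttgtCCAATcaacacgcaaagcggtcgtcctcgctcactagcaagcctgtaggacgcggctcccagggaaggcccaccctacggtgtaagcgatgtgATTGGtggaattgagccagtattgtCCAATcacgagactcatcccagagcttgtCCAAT
The Glrx5 stretch held 4 CCAAT letters, the Isca1 stretch 2 and the Isca2 stretch 1. GGGCGG occurred in the Isca2 stretch alone of the 3, in 2 places, and CCGGAAG once each upstream of Isca1 and Isca2. Members that were not called had these letters too. CCGGAAG was in the window of Nfs1, CCAAT in those of Bola3 and Nfu1, and GGGCGG in those of Bola3, Lyrm4 and Nfu1. Over 32851 RefSeq windows of 250 bases, CCAAT was in 33.8%, GGGCGG in 32.7% and CCGGAAG in 6.91%. The Isca1 and Isca2 stretches are shorter than that, at 229 and 98 bases. The cAMP response element (TGACGTCA, in 1.55% of windows), the NRF-1 motif (0.782%) and the composite motif of C/EBP and ATF factors (TGATGCAAT, 0.167%) were in the window of none of the 7 members in the table. A match describes letters and not a bound site.

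In the controls Iscu, the scaffold, was the most abundant at 24.4 ± 1.43 FPKM (SD, n = 3), higher than 78.7% of tested protein-coding genes. Isca2 followed at 15.9 ± 0.475, Isca1 at 14.0 ± 0.553, Nfs1 at 12.2 ± 0.616 and Bola3 at 9.56 ± 1.08 FPKM. Each of these 5 genes was above the next in all control libraries. Nfu1 at 6.55 ± 0.412 and Hscb at 6.23 ± 0.637 overlapped, as did Glrx5 at 3.58 ± 0.382 and Lyrm4 at 3.00 ± 0.243, the lowest of the 9. Lyrm4 was higher than 25.5% of tested protein-coding genes. The levels rest on the deposited gene lengths, which for all 9 genes equalled the union of exons of the annotated transcripts, 905 bases for Hscb and 10680 for Isca1. The recovered reads behind a value ranged from 69 to 133 for Hscb and from 85 to 188 for Lyrm4 up to 1609 to 2323 for Isca1, so the values of Hscb and Lyrm4 carry the most counting error.

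**Figure D1:**
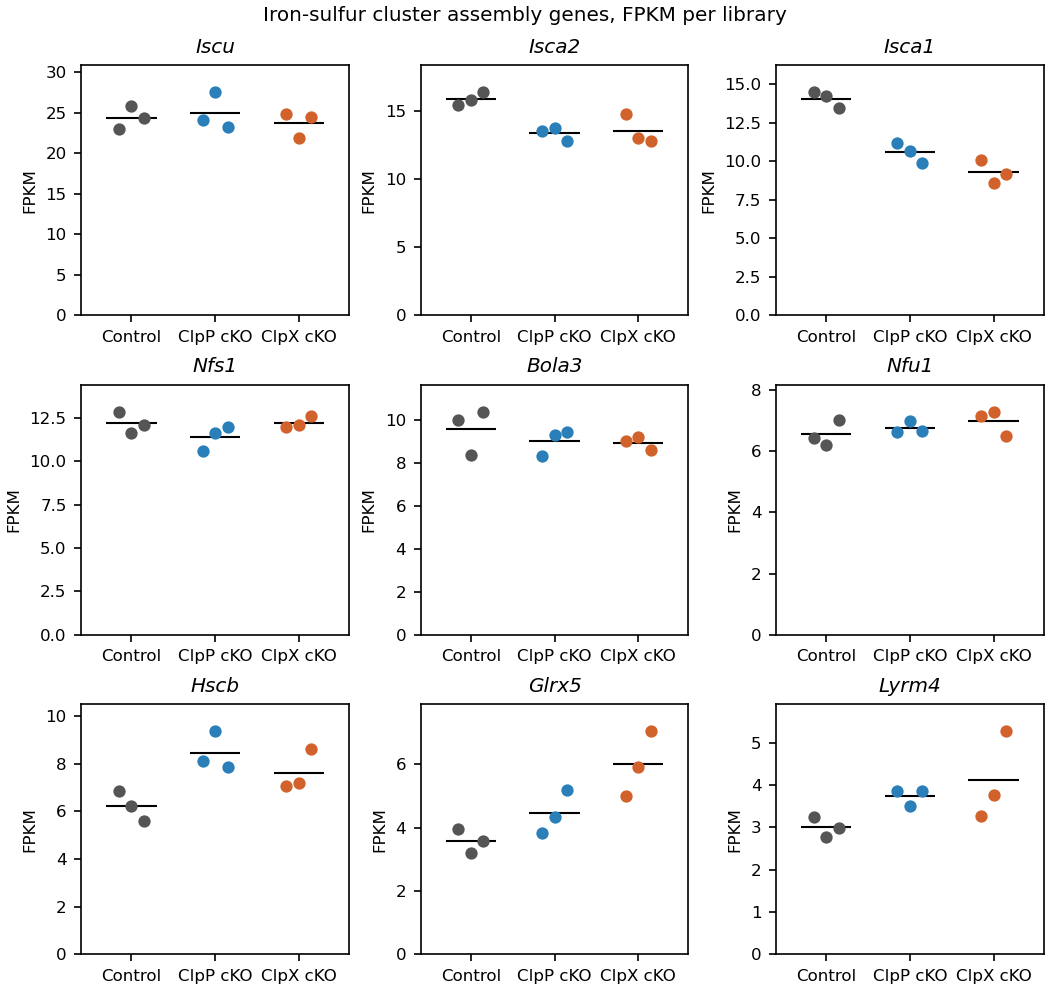
FPKM of each of the 9 genes by group (vertical axis, from 0), 1 point per library and a line at the mean of 3 libraries. The Isca1 points of both knockouts lie below all controls, those of Glrx5 in ClpX cKO lie above them, and those of Iscu, Nfs1, Nfu1 and Bola3 overlap.

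The 9 genes did not move as 1 block. In ClpP cKO against control, Isca1 and Isca2 fell, Hscb rose and 6 genes did not pass, with a median log2 change of 0.03. In ClpX cKO against control, Isca1 and Isca2 fell, Glrx5 rose and 6 did not pass, with a median of 0.00. So 3 of 9 were called in each. Of all tested genes 44.7% were called in ClpP cKO (20.7% up and 24% down) and 65.6% in ClpX cKO (32.1% up and 33.5% down), and of the protein-coding ones 49.3% and 70.6%. On the deposited scale the medians over all tested genes were 0.01 and 0.00, respectively. These medians and the split of all calls by direction depend on the scaling, as given below. Tests were made with limma on log2(FPKM + 1) over all 9 libraries, with calls made where the p adjusted by Benjamini-Hochberg was under 0.05. Changes are on that scale, which understates those of low genes. Without Control 3 and ClpX cKO 1 together, all 6 calls remained: Isca1 at -0.41 and -0.64, Isca2 at -0.21 and -0.26, Hscb at 0.32 in ClpP cKO and Glrx5 at 0.71 in ClpX cKO, with adjusted p up to 0.0442. The knockout libraries lay wholly to one side of the controls for 4 of the 9 genes in ClpP cKO and 5 in ClpX cKO, beside 61.7% and 69.8% of all tested genes and 67.8% and 75.6% of protein-coding ones.

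**Figure D2:**
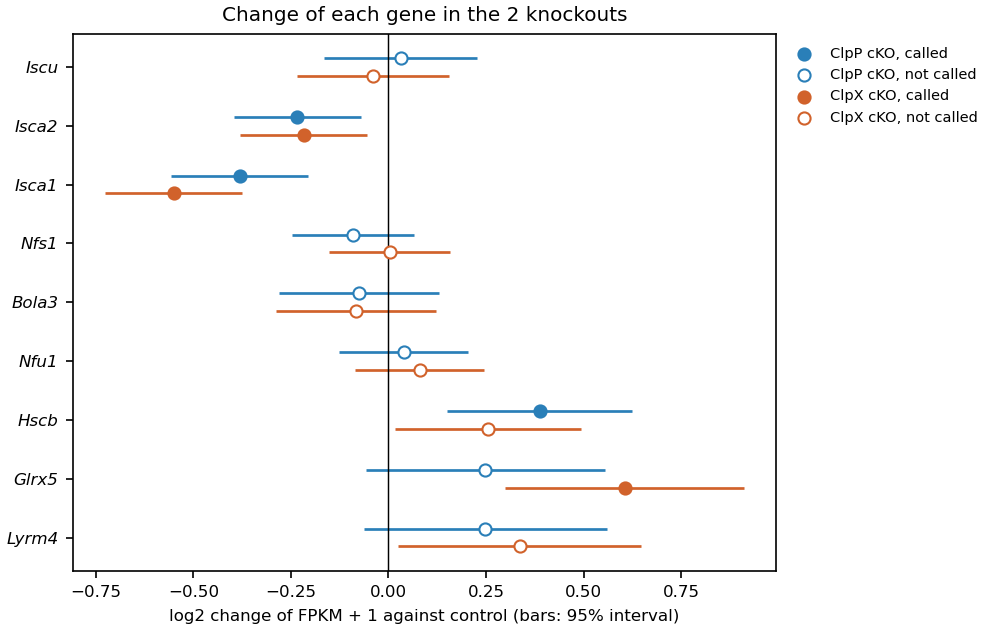
Log2 change of FPKM + 1 against control for the 9 genes (horizontal axis) in ClpP cKO and ClpX cKO, with 95% intervals from limma and filled points at an adjusted p under 0.05. Isca1 has the most negative value in both knockouts, Hscb the most positive in ClpP cKO and Glrx5 the most positive in ClpX cKO.

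Neither gene of sulfur supply passed the test in either knockout, and their libraries lay differently. Nfs1 (ENSMUSG00000027618, chromosome 2, 156123639 to 156144186, minus strand), the cysteine desulfurase, was at 12.9, 11.6 and 12.1 FPKM in the controls, 10.6, 11.6 and 12.0 in ClpP cKO and 12.0, 12.1 and 12.6 in ClpX cKO. The 3 groups overlapped. The change was -0.09 in ClpP cKO (95% interval -0.25 to 0.07, adjusted p = 0.293 by limma) and 0.003 in ClpX cKO (-0.15 to 0.16, adjusted p = 0.974). Nfs1 shares 148 bases at its start with Romo1 on the other strand, which was at 20.5 to 27.3 FPKM in the controls and 12.0 to 23.7 in the knockouts. Whether reads were counted by strand is not given in the sources used here, so reads in that stretch cannot be told apart. Gm28036, on the same strand, shares 3454 bases of its span with Nfs1 and was at 0 to 0.0112 FPKM.

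Lyrm4 (ENSMUSG00000046573, chromosome 13, 35978395 to 36117526, minus strand) encodes the small LYR motif protein that keeps the desulfurase stable. It was at 3.25, 2.76 and 2.99 FPKM in the controls, 3.86, 3.51 and 3.87 in ClpP cKO and 3.27, 3.78 and 5.28 in ClpX cKO. Every knockout library was above every control, ClpX cKO 1 by a small margin, yet neither change passed. The change was 0.25 in ClpP cKO (SE 0.14, adjusted p = 0.163 by limma) and 0.34 in ClpX cKO (SE 0.14, adjusted p = 0.0562). Without ClpX cKO 1 the latter was 0.46 with an adjusted p of 0.0132, and without ClpX cKO 3 it was 0.18 with an adjusted p of 0.15. Fars2, the mitochondrial phenylalanyl-tRNA synthetase gene that starts 115 bases inside Lyrm4 on the other strand, fell by 0.23 in ClpP cKO and by 0.37 in ClpX cKO (SE 0.08 each).

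Iscu (ENSMUSG00000025825, chromosome 5, 113772748 to 113778288, plus strand), on whose protein the first cluster forms, was at 22.9, 25.8 and 24.4 FPKM in the controls. In ClpP cKO it was at 24.1, 27.6 and 23.2 FPKM, and ClpX cKO gave 24.8, 21.8 and 24.5. The spread inside each group was wider than the distance between group means. The change was 0.03 in ClpP cKO (95% interval -0.16 to 0.23, adjusted p = 0.783 by limma) and -0.04 in ClpX cKO (-0.23 to 0.16, adjusted p = 0.706). Changes of a size inside those intervals are not excluded here. Among the protein-coding genes whose log2 values ran most closely with Iscu over the 9 libraries, out of 12826, were Gm10036 (Pearson r = 0.901) and Ap4b1 (0.827). Those most like Nfs1 were Ost4 (0.98), Tomm7 (0.96) and Ndufb7 (0.91). These coefficients are among the highest of 12826, over only 9 libraries that share their group structure. Above 0.9 there was 1 gene for Iscu and 6 for Nfs1. Log2 values of Iscu and Nfs1 varied little, with an SD of 0.094 and 0.073 over the libraries. Shared regulation was not tested.

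Hscb, the J-domain co-chaperone that brings the scaffold to the mitochondrial Hsp70 for cluster release, rose in ClpP cKO. Hscb (ENSMUSG00000043510, chromosome 5, 110829070 to 110839777, minus strand) was at 6.87, 6.22 and 5.59 FPKM in the controls, 8.13, 9.37 and 7.85 in ClpP cKO and 7.08, 7.20 and 8.61 in ClpX cKO. All 6 knockout libraries were above all controls. The change in ClpP cKO was 0.39 (SE 0.10, 1.31-fold in FPKM + 1, adjusted p = 0.0196 by limma). That call was lost without Control 2 (adjusted p = 0.0522), Control 3 (0.0555) or ClpP cKO 2 (0.0719). In ClpX cKO the change was 0.26 (SE 0.10) and did not pass, with an adjusted p of 0.0572, and it passed without Control 1 or without ClpX cKO 1. Hspa9, the Hsp70 of the same step, averaged 88.7 ± 2.42 FPKM for controls, 87.5 ± 2.36 for ClpP cKO and 84.4 ± 0.706 for ClpX cKO, and did not pass in either.

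Glrx5, the monothiol glutaredoxin that takes the cluster from the scaffold and hands it on, rose in ClpX cKO. Glrx5 (ENSMUSG00000021102, chromosome 12, 105032688 to 105042906, plus strand) was at 3.96, 3.20 and 3.57 FPKM in the controls, 3.82, 4.33 and 5.20 in ClpP cKO and 5.01, 5.93 and 7.05 in ClpX cKO. The ClpX cKO libraries were all above the controls, while ClpP cKO 1 lay among them. The change in ClpX cKO was 0.61 (SE 0.13, 1.52-fold in FPKM + 1, adjusted p = 0.00418 by limma). That call held in all 20 alternatives in which the gene was tested. In ClpP cKO the change was 0.25 (95% interval -0.06 to 0.55, adjusted p = 0.157). It passed there when libraries were scaled to their own totals of gene reads, at 0.39 (adjusted p = 0.0467). Beside it, the summed Sertoli markers were at 979 to 1383 FPKM in ClpX cKO and at 533 to 557 in the controls. In ClpP cKO, where Glrx5 did not pass, they were at 766 to 864 FPKM. The elongating spermatid sum went the other way, and the part of either sum in this change was not tested.

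Isca1 and Isca2 encode paired A-type proteins that build the larger, cubane type of cluster for aconitase, lipoyl synthase and parts of complex I. Isca1 (ENSMUSG00000044792, chromosome 13, 59755409 to 59769810, minus strand) was at 14.5, 14.2 and 13.4 FPKM in the controls. In ClpP cKO it was at 11.1, 10.7 and 9.85 FPKM, and ClpX cKO gave 10.1, 8.61 and 9.16. All knockout libraries were below all controls. Isca1 fell by 0.38 in ClpP cKO (SE 0.08, FPKM + 1 at 0.768 times the control, adjusted p = 0.0099 by limma). In ClpX cKO it fell by 0.55 (SE 0.08, FPKM + 1 at 0.683 times the control, adjusted p = 5.9e-04 by limma). Both calls held in all 21 alternatives, with the change from -0.42 to -0.21 in ClpP cKO and from -0.64 to -0.34 in ClpX cKO. Several alternatives could not move the change and altered only its spread or the adjustment of p. The values nearest to 0 came with scaling to the libraries' own totals of gene reads. Gm49354, annotated as protein-coding on the same strand, shares 10876 bases of its span with Isca1 and was at 0 FPKM in all libraries. How reads in shared stretches were assigned is not given in the sources used here. A noncoding gene, Etohd2, overlaps the first 314 bases of Isca1 on the other strand and fell by 0.56 in ClpX cKO (SE 0.16, adjusted p = 0.0126). In the same libraries the elongating spermatid markers summed to 7800 to 17295 FPKM in the controls and 1594 to 2455 in ClpX cKO. They summed to 4491 to 5377 FPKM in ClpP cKO. The Sertoli sum went the other way, and the part of either sum in these changes was not tested.

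Isca2 (ENSMUSG00000021241, chromosome 12, 84773251 to 84775088, plus strand) was at 15.5, 15.8 and 16.4 FPKM in the controls, 13.6, 13.8 and 12.8 in ClpP cKO and 14.8, 13.1 and 12.8 in ClpX cKO. The knockout libraries again lay below all controls, ClpX cKO 1 nearest to them. Isca2 fell by 0.23 in ClpP cKO (SE 0.07, adjusted p = 0.0294 by limma) and by 0.22 in ClpX cKO (SE 0.07, adjusted p = 0.0249). The calls were less stable than those of Isca1: 11 of 21 alternatives kept the one in ClpP cKO and 13 of 21 the one in ClpX cKO. In ClpP cKO the call was lost on leaving out any 1 of the 6 libraries compared, with adjusted p from 0.0565 to 0.1, and in ClpX cKO on leaving out Control 2, Control 3, ClpX cKO 2 or ClpX cKO 3. With libraries scaled to their own gene reads the changes were -0.06 and -0.01.

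Nfu1 and Bola3 act late, on the clusters that lipoyl synthase and complexes I and II receive. Nfu1 (ENSMUSG00000029993, chromosome 6, 87009236 to 87028461, plus strand) was at 6.43, 6.22 and 7.01 FPKM in the controls, 6.62, 6.98 and 6.66 in ClpP cKO and 7.15, 7.30 and 6.50 in ClpX cKO. Bola3 (ENSMUSG00000045160, chromosome 6, 83349147 to 83360136, plus strand) was at 9.98, 8.34 and 10.4 FPKM in the controls, 8.28, 9.29 and 9.41 in ClpP cKO and 9.02, 9.20 and 8.58 in ClpX cKO. The groups overlapped for both genes. The change of Nfu1 was 0.04 (95% interval -0.13 to 0.20) in ClpP cKO and 0.08 (-0.09 to 0.25) in ClpX cKO. That of Bola3 was -0.08 in both, with intervals of -0.28 to 0.13 and -0.29 to 0.12. None of these 4 changes passed, with adjusted p of 0.356 to 0.676.

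Shares within a library do not depend on the scale of that library. The summed FPKM of the 9 genes was 95.5 ± 1.06 for controls (SD, n = 3), 92.7 ± 3.84 for ClpP cKO and 92.4 ± 3.10 for ClpX cKO. Isca1 made up 15.04%, 15.11% and 14.0% of that sum in the controls, 12.4%, 11.0% and 10.8% in ClpP cKO and 10.8%, 9.67% and 9.64% in ClpX cKO. Isca2 made up 16.1% to 17.1% in the controls, 14.1% to 15.04% in ClpP cKO and 13.5% to 15.9% in ClpX cKO. Hscb held 5.83% to 7.14% in the controls, 8.64% to 9.65% in ClpP cKO and 7.59% to 9.06% in ClpX cKO. The share of Glrx5 was 3.40% to 4.12% in the controls, 4.24% to 5.73% in ClpP cKO and 5.38% to 7.42% in ClpX cKO. Lyrm4, which was not called, held 2.93% to 3.37% in the controls, 3.62% to 4.28% in ClpP cKO and 3.51% to 5.56% in ClpX cKO. For these 5 genes the shares of the knockouts lay outside the control range, but such shares set the 9 genes against each other and have no counterpart over all genes. The ratio of Isca1 to Isca2 averaged 0.885 ± 0.0605 for controls, 0.789 ± 0.0287 for ClpP cKO and 0.685 ± 0.0288 for ClpX cKO, and ClpX cKO alone did not overlap the controls. These ratios were chosen after the values were seen and were not tested.

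**Figure D3:**
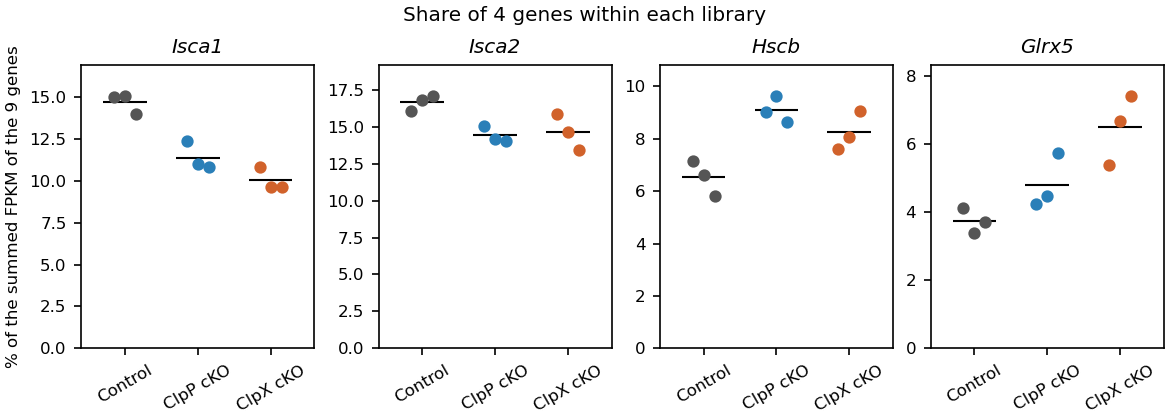
Share of Isca1, Isca2, Hscb and Glrx5 in the summed FPKM of the 9 genes (vertical axis, percent, from 0), 1 point per library and a line at the group mean. Isca1 goes from a mean of 14.7% in the controls to 10.0% in ClpX cKO, and Glrx5 from 3.74% to 6.48%.

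The size of the changes depended on how libraries were scaled. Scaling each library to its own total of gene reads moved the median change of all tested genes to 0.16 in ClpP cKO and 0.18 in ClpX cKO, and the share of increases among all calls from 46.3% to 71.4% and from 49.0% to 63.3%. Relative to that median, Isca1 was at -0.37 in ClpP cKO and -0.53 in ClpX cKO, Isca2 at -0.22 and -0.19, Hscb at 0.39 and 0.27 and Glrx5 at 0.23 and 0.61. On this scale 5 members were called up and 1 down in ClpX cKO: Nfs1 at 0.21, Nfu1 at 0.28, Lyrm4 at 0.51 and Hscb at 0.45 then passed beside Glrx5. Of all tested genes 67.4% were called on that scale, so 6 of 9 members is close to the background. The signs of Nfs1 and Bola3 in ClpP cKO, and of Iscu and Bola3 in ClpX cKO, turned positive, and none of these 4 changes passed under either scaling.

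**Figure D4:**
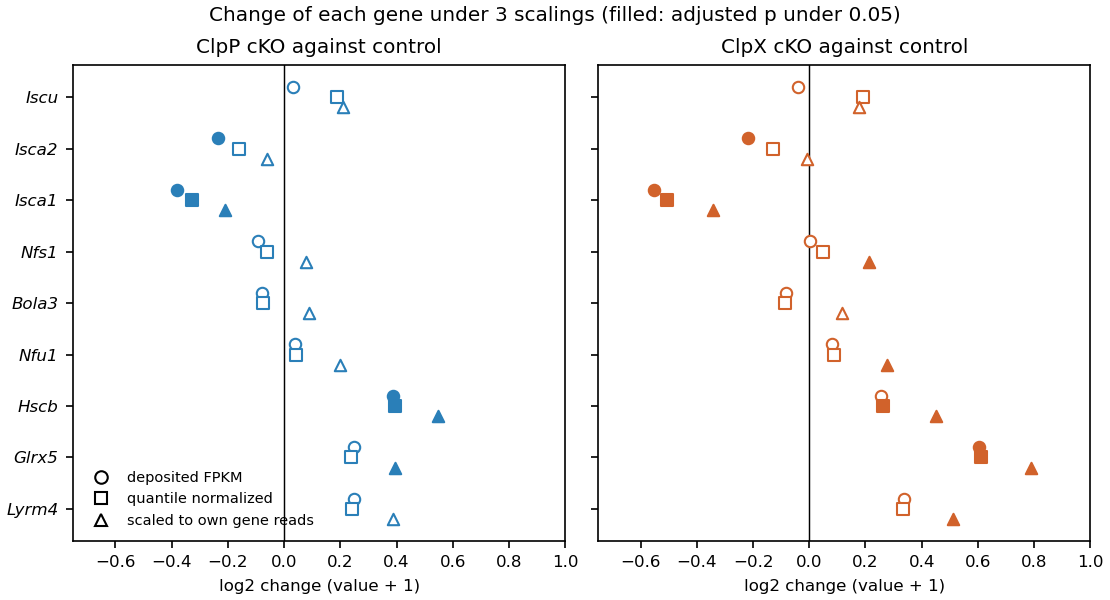
Log2 change of each gene against control (horizontal axis) in ClpP cKO and ClpX cKO under 3 scalings: deposited FPKM (circles), quantile normalization (squares) and scaling to the library's own gene reads (triangles), filled at an adjusted p under 0.05. Isca1 is below 0 and filled under all 3 in both knockouts, and Isca2 is filled for deposited FPKM alone.

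None of the 9 genes was called between ClpX cKO and ClpP cKO by limma. That comparison called 18 genes, 0.104% of all those tested and 0.0624% of protein-coding ones. Glrx5 alone had an unadjusted p under 0.05, with a change of 0.36 (95% interval 0.05 to 0.66, adjusted p = 0.137). Isca1 was at -0.17 (-0.35 to 0.01, adjusted p = 0.191), and the other 7 genes were between -0.13 and 0.09. The groups overlapped for all 9, while 29.9% of all tested genes and 32.1% of protein-coding ones did not overlap. With limma voom on the recovered reads the count was 0 as well. ClpX cKO 1 bears on this comparison: without it Glrx5 was called at 0.46 (adjusted p = 0.0374), and 4758 genes were called in all.

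The other 82 listed genes of iron-sulfur biology and iron supply are nuclear genes too, and 76 of them were tested. In ClpP cKO 16 rose and 14 fell, 39.5% of those tested beside 44.7% of all genes, with a median of 0.10. In ClpX cKO 28 rose and 16 fell, 57.9% beside 65.6%, with a median of 0.10. The medians over all protein-coding genes tested were 0.08 and 0.11, and the counts of each list below are to be read against these same shares and medians. The same 21 alternatives kept 5 of the 16 increases and 3 of the 14 decreases in ClpP cKO, and 23 of the 28 increases and 7 of the 16 decreases in ClpX cKO, wherever the gene was tested. Between ClpX cKO and ClpP cKO limma called none of the 76 (17 had an unadjusted p under 0.05), and voom called 1.

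Among 13 tested partners of the mitochondrial machinery, 2 rose and 4 fell in ClpP cKO (median 0.02), and 3 rose and 4 fell in ClpX cKO (median -0.07). Bola1, a relative of Bola3 that binds Glrx5, went from 23.4 ± 2.33 FPKM in the controls to 14.6 ± 0.340 in ClpP cKO (-0.64, SE 0.10, adjusted p = 0.0086) and 13.6 ± 1.57 in ClpX cKO (-0.74, SE 0.10, adjusted p = 5.1e-04). Fdxr, the reductase that feeds electrons to ferredoxin for cluster formation, rose by 0.40 and 0.52 (SE 0.10 each), the first call not without ClpP cKO 2. Slc25a37, an iron importer of the inner membrane, was at 7.02, 8.02 and 4.28 FPKM in the controls and fell to 2.65 ± 0.384 in ClpX cKO (-0.995, SE 0.18). Gfer, a sulfhydryl oxidase of the intermembrane space, fell by 0.89 in ClpX cKO (SE 0.13). Ndufab1, the acyl carrier protein that docks on Lyrm4, rose by 0.32 in ClpX cKO (SE 0.08).

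Of 11 cytosolic assembly genes 1 rose and 3 fell in ClpP cKO (median 0.02), and 2 rose and 3 fell in ClpX cKO (median 0.14). Nubp2, a scaffold subunit, and Glrx3, the cytosolic monothiol glutaredoxin, fell by 0.49 (SE 0.10) and 0.48 (SE 0.07) in ClpX cKO, neither call holding under quantile normalization, where Nubp2 was at 0.05. Ndor1, the reductase of that machinery, rose by 0.46 (SE 0.11) there. Of 8 lipoyl genes 1 rose and 1 fell in ClpP cKO (median -0.03) and 3 rose and 2 fell in ClpX cKO (median -0.07). Lias, the lipoyl synthase and itself an iron-sulfur enzyme, went from 13.5 ± 0.358 FPKM to 11.4 ± 0.617 in ClpP cKO (-0.23, SE 0.06) and 11.0 ± 0.246 in ClpX cKO (-0.27, SE 0.06). Under own-total scaling and voom it was called in neither knockout, and 15 of 21 alternatives kept the call in ClpP cKO, where the change nearest to 0 was -0.05. Dbt, a lipoylated subunit of branched-chain keto acid breakdown, rose by 0.49 and 0.61 (SE 0.11 each), and Gcsh, of the glycine cleavage system, by 0.55 in ClpX cKO (SE 0.11).

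Of 16 mitochondrial cluster proteins and insertion factors, 1 rose and 3 fell in ClpP cKO (median 0.04), and 5 rose and 3 fell in ClpX cKO (median 0.09). Lyrm7, which helps place the Rieske protein of complex III, went from 8.93 ± 0.738 FPKM to 5.38 ± 0.363 in ClpP cKO, and was at 4.65, 3.05 and 3.15 in ClpX cKO (-0.64 and -1.12, SE 0.13 each, adjusted p = 0.01 and 4.5e-04). Uqcrfs1, the Rieske protein itself, fell by 0.25 in each (SE 0.07), but these calls depended on the scaling. Of 21 alternatives 12 kept the call in ClpP cKO, where the change reached 0.09. In ClpX cKO it was lost under own-total scaling and voom, and with quantile normalization the change was 0.21, called in the other direction. Ndufv2 of complex I fell by 0.45 in ClpX cKO (SE 0.07), not called under quantile normalization. Mocs1, of molybdenum cofactor synthesis, rose by 0.39 and 0.80 (SE 0.09 each). Fech, the ferrochelatase that completes haem, rose by 0.41 in ClpX cKO (SE 0.07).

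Of 17 tested cluster proteins of cytosol and nucleus, 6 rose and 1 fell in ClpP cKO (median 0.23), and 10 rose and 2 fell in ClpX cKO (median 0.25). Nthl1, a DNA glycosylase, rose from 1.47 ± 0.387 FPKM to 3.15 ± 0.451 and 4.12 ± 0.733 (0.76 and 1.05, SE 0.15 each), and Pole, the catalytic subunit of DNA polymerase epsilon, by 0.33 and 0.44 (SE 0.08 each). Aco1, which serves as cytosolic aconitase with a cluster and binds iron-responsive RNA elements without one, went from 4.71 ± 0.471 FPKM to 8.51 ± 1.57 in ClpX cKO (0.73, SE 0.13, adjusted p = 0.0016). Cdkal1, a tRNA-modifying enzyme, fell by 0.62 in ClpX cKO (SE 0.10).

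Of 11 tested iron genes 5 rose and 2 fell in each knockout (medians 0.20 and 0.15). Ftl1, the ferritin light chain that stores iron, was at 22.6, 23.8 and 17.3 FPKM in the controls, 32.7, 36.5 and 32.8 in ClpP cKO and 37.1, 44.9 and 49.2 in ClpX cKO. It rose by 0.66 and 1.01 (SE 0.14 each, adjusted p = 0.01 and 5.3e-04). In ClpX cKO Tfrc, the transferrin receptor, rose by 0.55 and Slc11a2, the divalent metal transporter, by 0.79 (SE 0.11 each), where the mitochondrial importer gene Slc25a37 fell. Ncoa4, the receptor that delivers ferritin to autophagy, fell by 0.51 and 0.55 (SE 0.10 each). Ftmt, the mitochondrial ferritin, was at 50.01, 45.4 and 53.2 FPKM in the controls and at 32.2, 14.3 and 18.9 in ClpX cKO (-1.22, SE 0.26, adjusted p = 0.0033). So the cytosolic and the mitochondrial ferritin gene went in opposite directions, while in the same libraries the summed Sertoli markers were higher, the spermatid markers lower and the immune markers higher, at 70.1 to 87.8 FPKM beside 37.3 to 43.1 in the controls.

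**Figure D5:**
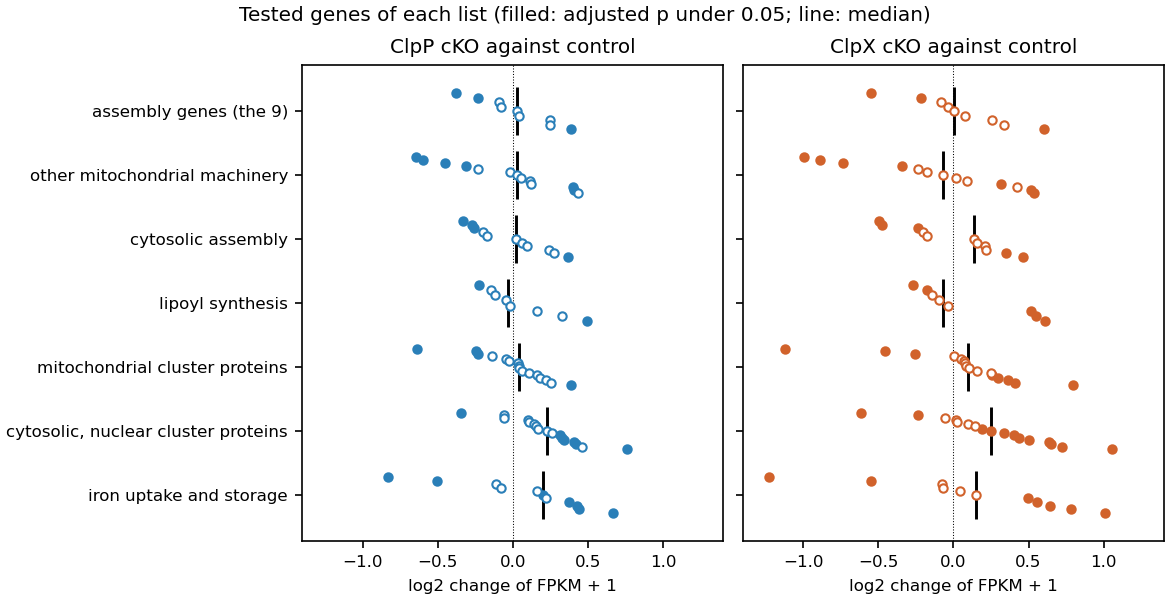
Log2 change of FPKM + 1 (horizontal axis) of the tested genes of each list in ClpP cKO and ClpX cKO against control, 1 point per gene, filled at an adjusted p under 0.05, with a line at the list's median. The 9 assembly genes span -0.55 to 0.61 in ClpX cKO, and the iron genes -1.22 to 1.01.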

How the data were processed

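RNA-seq values of 9 libraries were used, 3 per group. The authors deposited 1 table of FPKM for 54532 genes, with gene lengths per the file headers. The build was GRCm38 (mm10) per the submitters' processing notes. Aligner and counter are not given in the sources used here. Multiplied by gene length, 100% of the values were whole multiples (to within 0.01) of a constant of the library, and so gave the reads. The per-million denominator of the FPKM was 0.919 ± 0.028 times the gene reads of the library for controls, 1.05 ± 0.0037 for ClpP cKO and 1.07 ± 0.0174 for ClpX cKO. How it was set is not given in the sources used here. Median-of-ratios scaling of the deposited values changed little. Against control, the calls went from 7722 to 7729 in ClpP cKO and from 11326 to 11327 in ClpX cKO.

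Genes whose FPKM averaged 1 or more were fitted as log2(FPKM + 1) in limma 3.58.1 (R 4.3.3), with a trend in the prior variance and group as the only term. P-values are two-sided and adjusted over all 17266 genes. The script was tested on simulated data. Tables used Python 3.11.15 and pandas 2.3.3. Named were all 9 members, up to 4 called genes of each direction per list with the smallest adjusted p, a few genes chosen after their values were seen (Hspa9 and neighbouring genes), and the 3 genes most like Iscu and Nfs1, of which some are not reported here. Members, lists and tests were chosen with earlier results of these data known. Alternatives were another pseudocount, filters, scalings, limma voom on the recovered reads, fewer libraries, a replicate block, a robust prior and protein-coding genes only.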

Additional observations from a re-analysis of the deposited data

How the results depend on the processing

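Called members numbered 3 for ClpP cKO and 3 for ClpX cKO against control, and 0 between the knockouts. In ClpX cKO against control 6 members were called with scaling to own gene reads and with limma voom, and 5 with protein-coding genes only. Without Control 3 and ClpX cKO 1 together, 1 member was called between the knockouts. Leaving out 1 library gave 1 to 4, 2 to 5 and 0 to 1 members. The count in ClpP cKO was 1 without Control 2, Control 3 or ClpP cKO 2, and that in ClpX cKO was 5 without ClpX cKO 1. Of the 76 other listed genes, 30, 44 and 0 were called. In ClpP cKO this was 15 with no filter on low values and 46 with voom (41 up and 5 down), and between the knockouts 1 with voom and 21 without Control 3 and ClpX cKO 1 together. Leaving out 1 library gave 9 to 32, 37 to 48 and 0 to 17. Of all genes, 7722, 11326 and 18 were called, and 3617 to 8729, 9825 to 11779 and 0 to 4758 with 1 library left out. A mean FPKM of at least 5 left 9404 genes, without Glrx5 and Lyrm4, and called 6871 in ClpX cKO against control. Between the knockouts 29 genes were called with quantile normalization, 828 with voom, 89 with the 6 libraries compared, 1 with the replicate block and 5149 without Control 3 and ClpX cKO 1 together. The causes of these shifts were not tested. The replicate block changed no call of a member, and the same numbers share no stated origin. Same-numbered libraries had correlations of their deviations from -0.07 to 0.23, and differently numbered ones from -0.24 to 0.11. No called member reversed its direction in any alternative run. The thinnest values were those of Hscb and Lyrm4, with 69 to 188 reads per library.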

Other observations

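Of the 9 genes, 5 lie head to head with another protein-coding gene, the 2 annotated starts on opposite strands and at most 500 bases apart, beside 13.97% of the 12827 tested protein-coding genes. Npc2, a lysosomal cholesterol carrier whose start is 98 bases from that of Isca2, was at 7.99 to 8.81 FPKM in the controls, 10.1 to 10.7 in ClpP cKO and 12.2 to 14.4 in ClpX cKO. It rose by 0.29 and 0.61 (SE 0.07 each, adjusted p = 0.0175 and 4.6e-04 by limma), where Isca2 fell by 0.23 and 0.22. Sart3, a splicing factor gene 237 bases from Iscu, rose by 0.37 and 0.41 (SE 0.09 each), where Iscu did not pass. Chek2, a checkpoint kinase gene 201 bases from Hscb, rose by 0.55 in ClpX cKO (SE 0.12) from 0.709 to 1.14 FPKM in the controls to 1.52 to 2.13. In ClpP cKO, where Hscb rose, Chek2 was at 0.31 and did not pass. Fars2, which shares 115 bases with Lyrm4, fell in both knockouts. These neighbours were chosen after their values were seen, and no test of shared control was made.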
